A study of Arabidopsis thaliana with 36 samples.

Results

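The subject is the response of otu5 mutant roots of Arabidopsis thaliana to medium low in phosphate (Pi). The comparison sets 3 libraries of otu5 roots from low Pi medium against 3 libraries of otu5 roots from control medium, which are 6 of the 36 samples of the series. A gene entered when 3 or more of the 12 RNA libraries reached 1 RPKM, which kept 20411 of 33557 genes. RPKM is the authors' deposited unit of expression, which scales reads to gene length and library size, so levels can be set side by side between genes. The other 6 RNA libraries come from wild type (WT) roots on the same media, and they enter the filter on low values and the estimate of spread shared by all 4 groups, besides the WT values and the test of the difference between genotypes. OTU5 belongs to the ovarian tumour proteases, enzymes that take ubiquitin off other proteins, and the series asks about its role in roots and in their reaction to Pi shortage.

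Plants short of Pi save and recycle it, and they take up more of it. The transcription factor PHR1 drives most of the systemic response. SPX proteins bind inositol pyrophosphates, which follow the Pi status of the cell, and then hold PHR1 back. The microRNA miR399 lowers PHO2, an enzyme that marks Pi transporters for removal, while the non-coding RNAs IPS1 and AT4 act as decoys for miR399. Low Pi also makes more iron available on the medium, and genes of iron uptake are known to go down under Pi shortage.

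Seedlings grew on plates in continuous light, and roots were taken 14 days after germination. Every otu5 library carries the otu5 mutation, and the low Pi and control groups differ by medium. The labels name neither the allele, the Pi concentrations nor the time spent on each medium. Titles and source names give the medium; the culture condition label follows the genotype instead and contradicts the titles of 6 RNA libraries out of 12. Roots are named as the tissue and in the growth protocol, but the RNA isolation protocol speaks of rosette leaves. The origin of the replicates, from different plants, plates or neither, is not labelled; a p-value therefore covers the spread among these samples alone, and that spread could be technical.

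The transcript of OTU5 (AT3G62940) was low in all 6 otu5 libraries. It stood at 1.33, 1.71 and 1.04 RPKM in control and at 0.432, 0.999 and 1 RPKM in low Pi. The low Pi values lay below the control values without overlap, with a log2 difference of -0.52 (SE 0.18) that did not pass in limma (adjusted p = 0.094). All 11 root cell type markers were present, and their summed level was 373 to 425 RPKM in control and 424 to 457 RPKM in low Pi. The sum includes the Pi transporter gene PHT1;1, at 131 to 152 RPKM in control and 183 to 216 RPKM in low Pi. Among the markers the endodermal gene CASP1 ranged from 81.4 to 118 RPKM and the stem cell niche gene WOX5 from 2.3 to 4.03 RPKM. Of 11 shoot markers 2 passed the filter, RBCS1A and LHCB1.1, and the leaf and meristem genes MUTE, FAMA, GL1 and CLV3 were listed at 0 in all 6 libraries. Library sums lay between 993382 and 1139734 RPKM. The lowest values gave a relative depth of 0.671 to 0.995 against WT control replicate 1, with 0.846 in low Pi replicate 3, and the absolute depth is unknown.

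Low Pi changed 1754 genes in otu5 roots, 8.59% of those tested (limma, Benjamini-Hochberg adjusted p under 0.05 over 20411 genes). Of these, 982 rose (4.81%) and 772 fell (3.78%). At least 2-fold rises numbered 218 (1.07%) and at least 2-fold falls 82 (0.402%), so large changes were mostly upward. Many calls were small, with 410 rises under 0.5 and 496 falls above -0.5 on the log2 scale. The median log2 difference of all tested genes was -0.01. The low Pi and control values did not overlap in 1748 of the 1754 genes, against 14.1% (higher) and 14.3% (lower) of all tested genes. The calls were made from these same values, so this separation is no separate support for them. The count moved with single libraries, to 1057, 878 or 503 without control replicate 1, 2 or 3, to 693 or 682 without low Pi replicate 1 or 2, and to 2494 without low Pi replicate 3. In each of these 6 left-out fits 443 genes (2.17% of all tested genes) were called in the same direction, 268 higher and 175 lower. Counts of list members called in every left-out fit stand against this share.

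**Figure D1:**
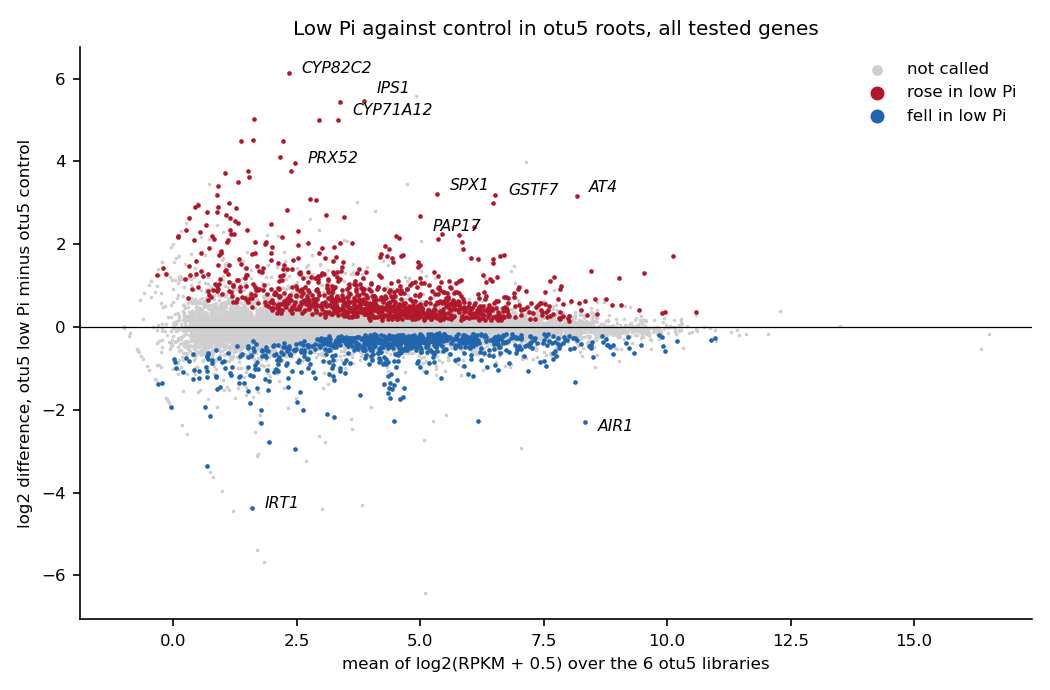
Each point is 1 of the 20411 tested genes; the x axis is the mean of log2(RPKM + 0.5) over the 6 otu5 libraries and the y axis the log2 difference, otu5 low Pi minus otu5 control. Red points are the 982 genes that rose and blue points the 772 that fell, and the points far from 0 lie mostly on the upper side, with CYP82C2 highest among the called genes at 6.13.

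Pi starvation markers and genes of indolic defence compounds shared the top of the list of rises among genes with a symbol. CYP82C2, a cytochrome P450 of the 4-hydroxyindole-3-carbonyl nitrile pathway, stood at 0.0853, 0.173 and 0.0734 RPKM in control and at 73.4, 138 and 7.13 RPKM in low Pi. Its log2 difference was 6.13 (SE 0.89, limma adjusted p = 0.0044). Every low Pi library was above every control library, but replicate 3 was far below the other low Pi libraries. IPS1 stood at 1.59, 2.03 and 1.52 RPKM in control and at 62.5, 126 and 110 RPKM in low Pi (log2 difference 5.45, SE 0.39, limma adjusted p = 0.00014), and here replicate 3 was close to replicate 2. CYP71A12 and CYP71A13, P450s that act early in camalexin synthesis, had log2 differences of 5.42 (SE 0.9) and 4.51 (SE 0.89). CYP71A12 was at 113, 194 and 13.6 RPKM in the low Pi libraries against 0.576 to 1.77 RPKM in control. SAG13, a senescence-associated dehydrogenase gene, reached 20.3, 42.4 and 1.62 RPKM from control values of at most 0.0948 RPKM.

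The other 5 of the 10 largest rises among genes with a symbol were PRX52, PEPC1, OCT1, SPX1 and GSTF7. PRX52, a class III peroxidase that takes part in lignification, stood at 1.21, 0.581 and 0.99 RPKM in control and at 16.1, 27.5 and 21.9 RPKM in low Pi (log2 difference 3.96, SE 0.31, limma adjusted p = 0.00015). PEPC1, a phosphatase gene that acts on phosphocholine and phosphoethanolamine, was at 0.0443 to 0.1 RPKM in control and at 3.95, 14.7 and 5.76 RPKM in low Pi. OCT1, an organic cation transporter gene, was at 0.243 to 0.423 RPKM in control and at 9.46, 15.4 and 6.23 RPKM in low Pi. None of these 3 overlapped between the groups, and each was called in every left-out fit. GSTF7 reached 383, 719 and 77.4 RPKM from about 30 RPKM (log2 difference 3.19, SE 0.71, limma adjusted p = 0.027). Its call was lost in each left-out fit except that without low Pi replicate 3 (adjusted p up to 0.093). CYP71A13 lost its call without control replicate 3 or without low Pi replicate 1 or 2 (adjusted p = 0.058, 0.059 and 0.053), and SAG13 without control replicate 3 or low Pi replicate 1 (0.054 and 0.055). In a fit of only the 6 otu5 libraries CYP71A12, CYP71A13, SAG13 and GSTF7 did not pass (0.059, 0.069, 0.091 and 0.11). Some named genes, among them CYP82C2, CYP71A13, SAG13, PEPC1, OCT1 and SPX3, had control values under 1 RPKM in both genotypes. They passed the filter through low Pi libraries alone, so they could enter only by being high there.

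Among genes with a symbol, IRT1 of iron uptake had the largest fall. IRT1, the main iron transporter of the root epidermis, stood at 11.4, 10.2 and 20.4 RPKM in control and at 0.197, 0 and 0.35 RPKM in low Pi, 1 library being listed at 0 (log2 difference -4.38, SE 0.33, limma adjusted p = 0.00014). AIR1, which was first found as an auxin-responsive gene, stood at 770, 740 and 654 RPKM in control and at 134, 107 and 214 RPKM in low Pi. The serine carboxypeptidase-like gene scpl31 stood at 44.8, 39.5 and 46.2 RPKM in control and at 12.3, 12.5 and 13.1 RPKM in low Pi (log2 difference -1.74, SE 0.14, limma adjusted p = 0.00018). In these 3 genes the groups lay far apart, and the low Pi libraries of scpl31 were close together while those of AIR1 were not. TPPH, a trehalose phosphate phosphatase gene, stood at 8.29, 6.61 and 8.58 RPKM in control and at 2.57, 2.65 and 2.36 RPKM in low Pi. The remaining falls among the 10 largest with a symbol were BHLH39, BHLH38, PIRL8, CYP76C5, UMAMIT17 and SCPL32, with log2 differences between -2.32 and -1.5. UMAMIT17 lost its call without control replicate 3 (adjusted p = 0.056). SCPL32 lost it without control replicate 1 or 3 (0.074 and 0.099) or low Pi replicate 1 or 2 (0.073 and 0.061), and PIRL8 and CYP76C5 lost theirs in the fit of only 6 libraries (0.051 and 0.052).

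**Figure D2:**
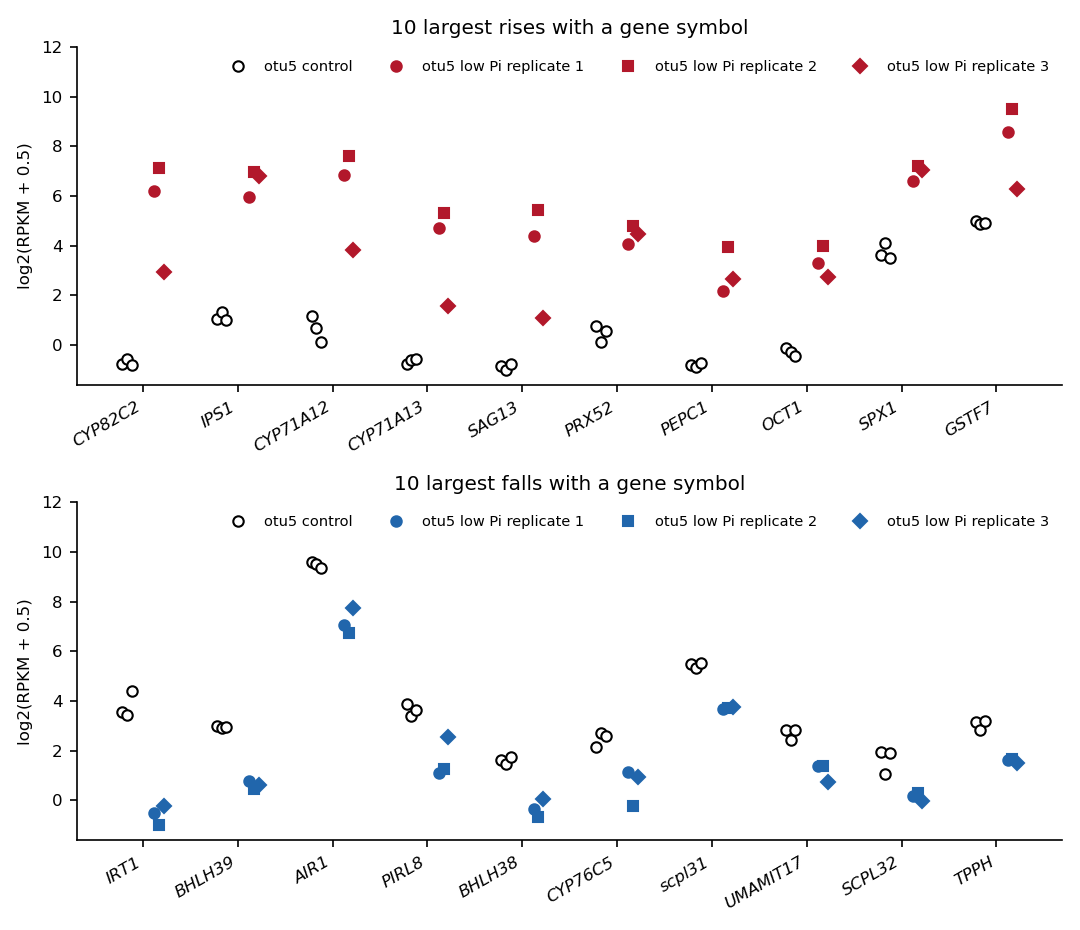
Values of the 10 largest rises (top, red) and the 10 largest falls (bottom, blue) in each library, as log2(RPKM + 0.5); open circles are the 3 otu5 control libraries and filled symbols the 3 otu5 low Pi libraries. Low Pi replicate 3 lies well below the other low Pi libraries for CYP82C2, CYP71A12, CYP71A13, SAG13 and GSTF7, and beside them for IPS1, PRX52 and SPX1.

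Decoy RNAs and sensors of Pi signalling rose in otu5, and 2 genes that remove Pi transporters fell. Of 24 tested genes 9 rose (37.5%, against 4.81% of all tested genes) and 3 fell (12.5%, against 3.78%). The median log2 difference was 0.18. SPX1, a Pi sensor that holds PHR1 back, stood at 11.7, 16.9 and 10.9 RPKM in control and at 96.5, 148 and 131 RPKM in low Pi (log2 difference 3.2, SE 0.29, limma adjusted p = 0.00044). AT4, the other miR399 decoy, stood at 105, 95.2 and 88.9 RPKM in control and at 746, 903 and 941 RPKM in low Pi. SPX3 reached 2.89, 8.19 and 4.12 RPKM from 0.0826 to 0.278 RPKM. PHO2, the ubiquitin conjugase that miR399 targets, stood at 153, 144 and 157 RPKM in control and at 81.9, 78.2 and 86 RPKM in low Pi (log2 difference -0.88, SE 0.06, limma adjusted p = 5.8e-05). The libraries of each medium were thus close together for PHO2 and far from those of the other medium. NLA, a ubiquitin ligase that also removes Pi transporters, was the weakest of the 3 falls (-0.38, adjusted p = 0.033) and was lost in 5 of the 6 left-out fits. PHR1 itself was at 32.9 to 35.5 RPKM in control and 34.9 to 37.9 RPKM in low Pi (log2 difference 0.1, adjusted p = 0.22). In each left-out fit 7 of the rises and 2 of the falls remained.

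Pi transporters were split. Of 23 tested genes 7 rose (30.4%, against 4.81% of all tested genes) and 2 fell (8.7%, against 3.78%). The median was 0.00. PHT1;4, a high-affinity Pi transporter of the plasma membrane, stood at 20.4, 19.9 and 17.8 RPKM in control and at 74.5, 103 and 80.9 RPKM in low Pi (log2 difference 2.11, SE 0.18, limma adjusted p = 0.00022). G3PP1, a glycerol 3-phosphate permease gene, stood at 30.1, 27.9 and 26.2 RPKM in control and at 105, 128 and 120 RPKM in low Pi. Both were called in every left-out fit, and they were the 2 of the 7 rises for which that held. PHT1;2 reached 3.88, 11.5 and 8.65 RPKM from 1.35 to 2.02 RPKM, a call lost in each left-out fit except that without low Pi replicate 1 (adjusted p up to 0.11). PHT3;2, a mitochondrial Pi carrier gene, reached 4.06, 8.93 and 1.43 RPKM from 0.461 to 0.624 RPKM, a call lost without any 1 of the 3 controls or without low Pi replicate 1 (adjusted p from 0.051 to 0.079). PHT1;2 and the nearly identical PHT1;1 are uncertain in how reads were split between them. The second permease gene, G3PP2, went the other way, from 6.52, 6.33 and 5.62 RPKM to 2.36, 3 and 3.95 RPKM (log2 difference -0.91, SE 0.19, adjusted p = 0.02), a call lost in 5 of the 6 left-out fits. PHO1, which loads Pi into the xylem, was at 209 to 223 RPKM in control and 186 to 205 RPKM in low Pi (log2 difference -0.14, adjusted p = 0.17).

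Several genes that recycle Pi or bypass its use, and some acid phosphatases, rose. Of 11 tested genes of Pi recycling and metabolic bypass 8 rose and 0 fell, with a median log2 difference of 0.58, and 6 rose in each left-out fit. PS2, a pyrophosphatase gene, stood at 27.2, 15.2 and 18 RPKM in control and at 71.6, 142 and 83.1 RPKM in low Pi (log2 difference 2.25, SE 0.34, limma adjusted p = 0.0052). The secreted ribonuclease gene RNS1 stood at 1.53, 1.03 and 1.08 RPKM in control and at 3.84, 7.85 and 5.09 RPKM in low Pi. PPCK2, a kinase that activates phosphoenolpyruvate carboxylase, was at 6.07 to 6.63 RPKM in control and 12.7 to 13.2 RPKM in low Pi, so both groups were tight. Of 18 purple acid phosphatase genes 4 rose and 0 fell, with a median of 0.06. PAP17 stood at 13.4, 10.8 and 12.3 RPKM in control and at 67.6, 103 and 73.9 RPKM in low Pi (log2 difference 2.68, SE 0.2, limma adjusted p = 0.00015), and PAP12, which is secreted, at 37.8 to 40.7 and 61.7 to 79.2 RPKM. The other rises were AT1G13750 (0.92) and PAP8 (0.48), the last lost without control replicate 3 (adjusted p = 0.055).

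Under Pi shortage phospholipids are known to be replaced by galactolipids and sulfolipids, and 13 of 19 tested lipid remodelling genes rose while 1 fell. The median log2 difference was 0.5, and the rises numbered 6 to 13 in the left-out fits, 6 without control replicate 3 or low Pi replicate 2. GDPD1, a glycerophosphodiesterase gene, stood at 9.55, 12.1 and 11.1 RPKM in control and at 39.9, 60.6 and 51.7 RPKM in low Pi (log2 difference 2.15, SE 0.25, limma adjusted p = 0.0016). MGD3, which makes galactolipids, stood at 1.45, 0.951 and 1.61 RPKM in control and at 5.05, 8.79 and 7.79 RPKM in low Pi. PLDP2, a phospholipase D gene, was at 1.05 to 1.23 RPKM in control and 4.06 to 6.91 RPKM in low Pi, and the sulfolipid synthesis gene SQD1 had a log2 difference of 1.07 (SE 0.16). The member that fell was AT1G73600, from 191, 138 and 151 RPKM in control to 31.5, 25 and 42.6 RPKM in low Pi (log2 difference -2.28, SE 0.23, limma adjusted p = 0.001). All 5 of these calls stood in every left-out fit.

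Local Pi sensing at the root tip is known to work through malate, iron and the oxidase LPR1. Of 9 tested genes of local Pi and aluminium sensing 2 rose and 0 fell. ALMT1, the malate channel gene, stood at 1.89, 2.31 and 2.07 RPKM in control and at 15.8, 10.5 and 11.1 RPKM in low Pi (log2 difference 2.31, SE 0.17, limma adjusted p = 0.00013). Its regulator gene STOP1 was at 74.1 to 80.1 RPKM in control and 75.5 to 84.3 RPKM in low Pi (log2 difference 0.07, adjusted p = 0.52), with overlapping groups. LPR2 was the other rise (0.35, SE 0.1, adjusted p = 0.047), and it was lost in every left-out fit.

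Iron uptake genes fell, while ferritin genes rose. Of 26 tested genes of iron uptake and its regulators 12 fell and 1 rose, with a median log2 difference of -0.21, and 10 of the falls stood in each left-out fit. BHLH39, a transcription factor that pairs with the iron regulator FIT, stood at 7.37, 6.96 and 7.22 RPKM in control and at 1.23, 0.871 and 1.02 RPKM in low Pi (log2 difference -2.32, SE 0.11, limma adjusted p = 9.3e-06). Its relative BHLH38 stood at 2.57, 2.24 and 2.86 RPKM in control and at 0.277, 0.131 and 0.526 RPKM in low Pi. AT1G47395 and AT2G30766 fell by 2.28 and 2.77 on the log2 scale, with no overlap in either. OPT3, an iron transporter gene of the phloem, was at 31 to 40.1 RPKM in control and 11 to 15 RPKM in low Pi, and the ferric reductase gene FRO2 at 3.74 to 7.54 and 1.6 to 2.18 RPKM. The proton pump gene AHA2, which also serves iron uptake, was at 603 to 651 RPKM in control and 636 to 733 RPKM in low Pi (log2 difference 0.16, adjusted p = 0.22). FRD3, which loads citrate into the xylem for iron transport, was the member that rose, from 22.4, 16 and 19.4 RPKM to 39.6, 41.4 and 28.8 RPKM (log2 difference 0.9, SE 0.15, limma adjusted p = 0.0076). With a pseudocount of 0.1 in place of 0.5 AT2G30766 did not pass (adjusted p = 0.061).

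Of 7 tested iron storage genes 4 rose and 1 fell. The ferritin gene FER1 stood at 96.7, 86.3 and 90.7 RPKM in control and at 176, 208 and 139 RPKM in low Pi (log2 difference 0.91, SE 0.14, limma adjusted p = 0.0048), and it was the storage gene that was called in every left-out fit. FER2, FER3 and FER4 rose by 0.34 to 0.55. VTL2, a gene of the family that moves iron into the vacuole, fell (-1.18, SE 0.24, adjusted p = 0.016). FER4 lost its call without control replicate 2 or 3 or low Pi replicate 1 or 2 (adjusted p from 0.075 to 0.084), FER2 in each left-out fit except that without low Pi replicate 3, and VTL2 in all except those without control replicate 2 or low Pi replicate 3 (0.052 to 0.072). CYP82C4, a P450 of coumarin synthesis that responds to iron, stood at 0.793, 0.705 and 0.9 RPKM in control, and each of the 3 low Pi libraries listed it at 0 (limma adjusted p = 0.0011). Every otu5 value of CYP82C4 was thus under 1 RPKM, and the gene passed the filter through WT control alone (2.23, 2.83 and 2.47 RPKM). PDR9, an exporter of phenolic compounds, was at 63.8 to 64.7 RPKM in control and 81.3 to 97.5 RPKM in low Pi (log2 difference 0.5, SE 0.08, limma adjusted p = 0.0047). Of 21 tested zinc, copper and manganese genes 2 rose, ZIP3 and HMA5 (9.52%, against 4.81% of all tested genes). HMA2 was the 1 that fell (4.76%, against 3.78%), and 0 of these genes were called in every left-out fit.

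Sulfate transporters and genes induced by sulfur shortage were among the genes that rose. Of 23 tested sulfate genes 7 rose and 0 fell, with a median log2 difference of 0.28. The rises numbered 2 without control replicate 2 or 3 or low Pi replicate 1, 3 without low Pi replicate 2 and 9 without low Pi replicate 3. SULTR1;3, a sulfate transporter of the phloem, stood at 0.198, 0.267 and 0.312 RPKM in control and at 1.15, 2.1 and 1.62 RPKM in low Pi (log2 difference 1.46, SE 0.25, limma adjusted p = 0.0069). SULTR3;4 was at 7.59 to 11 RPKM in control and 16.4 to 18.4 RPKM in low Pi, and both transporter genes were called in every left-out fit. LSU1 and LSU2, small proteins induced by sulfur shortage, rose by 1.04 and 0.97 and lost their calls without control replicate 2 or 3 or low Pi replicate 1 or 2 (adjusted p from 0.059 to 0.13).

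Of 24 tested genes of indolic defence compounds 7 rose and 0 fell, with a median log2 difference of 0.7. In 14 of the 24 every low Pi library was above every control library, against 14.1% of all tested genes. Besides the 3 P450 genes above, the rises were AT1G26380 (3.77), GSTF6 (2.99), the transcription factor gene NAC042 (2.5) and ASA1 (1.09), which starts tryptophan synthesis. PAD3, the last enzyme of camalexin synthesis, stood at 18.3, 19.7 and 21.1 RPKM in control and at 55.4, 98.3 and 24.2 RPKM in low Pi (log2 difference 1.35, SE 0.45) and did not pass (adjusted p = 0.098). WRKY33, a regulator of camalexin genes, was at 78.7 to 150 RPKM in control and 70.1 to 200 RPKM in low Pi with overlapping groups. The size of the defence response differed between the low Pi libraries. The mean of the list lay 1.68, 2.25 and 0.57 above the control mean on the log2 scale in low Pi replicates 1, 2 and 3. Pi recycling genes had 0.87, 1.31 and 1.01 in the same libraries, iron uptake genes -0.73, -0.9 and -0.75, and reference genes 0.01, 0.05 and 0.02. Over all tested genes the median gap of replicate 3 to the mean of replicates 1 and 2 was -0.00, over the rises of at least 2-fold -0.72 and over the indolic list -0.97. Without low Pi replicate 3 the indolic rises numbered 15, and without any 1 other library 2 to 4. Low Pi replicate 3 was the lowest of the 3 low Pi libraries in 736 of the 982 rises, and replicate 2 the highest in 745. Its part in these results was not tested.

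**Figure D3:**
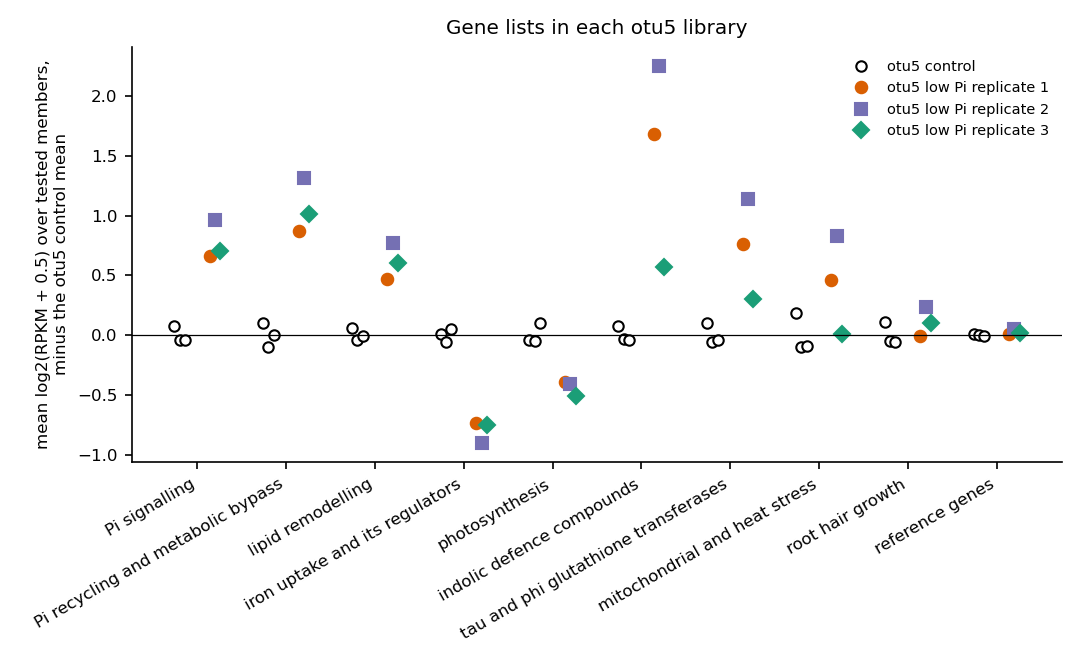
Mean log2(RPKM + 0.5) over the tested members of 10 gene lists in each otu5 library, minus the mean of the 3 otu5 control libraries; open circles are control and filled symbols the low Pi libraries. Indolic defence genes spread from 0.57 to 2.25 over the low Pi libraries, whereas iron uptake genes lie between -0.9 and -0.73 and photosynthesis genes between -0.51 and -0.39.

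Tau and phi glutathione transferases, which conjugate reactive compounds to glutathione, gave 15 rises and 2 falls among 40 tested genes (median 0.5). GSTU25 stood at 49.7, 64.8 and 48.2 RPKM in control and at 199, 201 and 141 RPKM in low Pi (log2 difference 1.72, SE 0.23, limma adjusted p = 0.0027), and GSTU24 at 45.8 to 56.3 and 112 to 189 RPKM. GSTF6 stood at 33.1, 27.5 and 33.4 RPKM in control and at 291, 589 and 91.9 RPKM in low Pi. GSTF6 and GSTF7 are near copies, so the split of reads between them is uncertain. Across the left-out fits 7 to 20 of the family rose, 7 without control replicate 3 and 20 without low Pi replicate 3, and 7 rose in each of them. GSTF6 and GSTF3 lost their calls in each left-out fit except that without low Pi replicate 3 (adjusted p up to 0.074 and 0.11), and GSTU4 (2.71) lost its call without control replicate 3 (0.056). Glycosyltransferases of the UGT family, looked at after values were seen, gave 15 rises and 0 falls among 50 tested genes, 9 of them in each left-out fit. UGT74E2, which glucosylates indole-3-butyric acid, stood at 4.8, 6.17 and 3.4 RPKM in control and at 29.8, 17.9 and 16 RPKM in low Pi (log2 difference 2.02, SE 0.33, limma adjusted p = 0.0064). UGT73B4 was at 12 to 14.5 RPKM in control and 31.3 to 57.6 RPKM in low Pi.

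Genes of aliphatic glucosinolates gave 3 falls (27.3%, against 3.78% of all tested genes) and 1 rise (9.09%, against 4.81%) among 11 tested. The falls were small, from -0.42 for the regulator MYB28 to -0.31 for CYP79F2 and -0.27 for CYP83A1, and 0 of the 4 calls stood in every left-out fit. MYB28 was at 43.2 to 51 RPKM in control and 30.1 to 37.9 RPKM in low Pi.

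Photosynthesis genes were lower in low Pi. All 32 tested genes had log2 differences below 0, 17 fell and 0 rose, and the median was -0.38. RCA, the Rubisco activase gene, stood at 134, 135 and 144 RPKM in control and at 97.5, 86.8 and 86.8 RPKM in low Pi (log2 difference -0.61, SE 0.09, limma adjusted p = 0.0033). GAPB, of the Calvin cycle, was at 52.6 to 56.1 RPKM in control and 36.8 to 39.5 RPKM in low Pi. The groups did not overlap in 30 of the 32 genes, against 14.3% of all tested genes. The summed level of the list was 3260 to 3511 RPKM in control and 2441 to 2528 RPKM in low Pi. Both shoot markers that passed the filter are members of this list. RBCS1A stood at 314, 336 and 343 RPKM in control and at 222, 220 and 256 RPKM in low Pi (log2 difference -0.51, SE 0.1, limma adjusted p = 0.013), and LHCB1.1 at 5.66 to 6.53 and 2.24 to 4.74 RPKM (adjusted p = 0.19), neither with overlap. The summed level of all 11 shoot markers was 320 to 350 RPKM in control and 226 to 258 RPKM in low Pi, and their part in the result was not tested. In bulk roots fewer cells of a type and less RNA per cell cannot be told apart. The falls numbered 3, 7 or 8 without control replicate 3, 1 or 2, 5 without low Pi replicate 1 or 2, and 12 without low Pi replicate 3. In WT 2 of the same 32 genes fell, or 17 with the replicate number as a block in WT, added after seeing the data. The test of the difference between genotypes called 0 of them.

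Among genes of root barriers, water transport and the cell wall, some suberin genes rose and some aquaporin and XTH genes fell. Of 18 tested suberin genes 4 rose and 0 fell (median 0.38), among them GPAT5, a suberin acyltransferase gene, at 10.7 to 15.3 RPKM in control and 16.5 to 18.3 RPKM in low Pi, and the transporter gene ABCG6 at 14.4 to 18.3 and 21.8 to 24.6 RPKM. The count was 7 without control replicate 1, 3 without low Pi replicate 3 and 0 in the other 4 left-out fits. Aquaporins of the PIP and TIP families gave 7 falls and 0 rises among 20 tested (median -0.25). RD28, a plasma membrane aquaporin gene, stood at 123, 99 and 120 RPKM in control and at 58.4, 63 and 54.1 RPKM in low Pi (log2 difference -0.95, SE 0.09, limma adjusted p = 0.00061). PIP2B was at 415 to 516 RPKM in control and 275 to 289 RPKM in low Pi. Both fell in every left-out fit; as close relatives, RD28 and PIP2B are uncertain in how reads were split. Over the left-out fits the aquaporin falls numbered 2 to 8, with 2 without control replicate 3. Of 27 tested XTH genes, which cut and rejoin xyloglucan in the cell wall, 4 fell (14.8%, against 3.78% of all tested genes) and 0 rose. The falls numbered 2 without control replicate 3 or low Pi replicate 1 or 2 and 6 without low Pi replicate 3, and 1 stood in every left-out fit. XTH31 was at 230 to 275 RPKM in control and 112 to 157 RPKM in low Pi (log2 difference -0.94, SE 0.15, limma adjusted p = 0.0063).

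Ethylene genes rose and auxin genes fell in small numbers, and the other hormone lists held 0 called genes. Of 14 tested ethylene genes 3 rose (21.4%, against 4.81% of all tested genes) and 0 fell. EBF2, which targets the ethylene regulator EIN3 for removal, stood at 46.8, 42.1 and 48.1 RPKM in control and at 72.4, 86.8 and 62.3 RPKM in low Pi (log2 difference 0.68, SE 0.1, limma adjusted p = 0.004), and the receptor gene ERS1 rose by 0.42, a call lost without control replicate 3 (0.053). Of 20 tested auxin genes 4 fell (against 3.78% of all tested genes) and 0 rose, with 1 fall without control replicate 3. Besides AIR1 these were LBD29 (-1.16), a regulator of lateral root formation, and the repressor genes IAA19 (-0.6) and IAA14 (-0.27). LBD29 lost its call without control replicate 3 (0.069), IAA19 without control replicate 1 or 3 or low Pi replicate 1 (0.058 to 0.068) and IAA14 in every left-out fit. Among 14 jasmonate, 7 abscisic acid and 6 immunity genes limma called 0 at an adjusted p under 0.05. Of the jasmonate genes 11 had log2 differences below 0 and 3 above, with a median of -0.19. JAZ10, a jasmonate repressor gene and 1 of these 3, had the values 4.26, 4.71 and 3.27 RPKM in control and 8.23, 15 and 5.19 RPKM in low Pi (log2 difference 1.01, limma adjusted p = 0.17). The mean of the jasmonate list spread over the libraries of both media, from -0.37 to 0.57 in control and from -0.57 to 0.46 in low Pi.

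Of 17 tested nitrate and ammonium genes 3 fell (17.6%, against 3.78% of all tested genes) and 0 rose. The nitrate reductase gene NIA1 stood at 527, 497 and 513 RPKM in control and at 400, 366 and 375 RPKM in low Pi (log2 difference -0.43, SE 0.06, limma adjusted p = 0.0033). The transporter genes NRT2.4 (-1.12) and NRT2.2 (-1.04) fell too, but each lost its call in 5 of the 6 left-out fits, NRT2.4 in all except that without low Pi replicate 3 and NRT2.2 in all except that without control replicate 2. Of 8 genes that respond to low oxygen limma called 0, and also 0 in each left-out fit. All 8 had log2 differences below 0, and 7 were lower without overlap, against 14.3% of all tested genes. The alcohol dehydrogenase gene ADH1 was at 1402, 1690 and 1511 RPKM in control and 961, 1171 and 1127 RPKM in low Pi (log2 difference -0.5, limma adjusted p = 0.13). Of 10 tested mitochondrial and heat stress genes 4 rose and 0 fell, among them the alternative oxidase genes AOX1D (2.3) and AOX1A (0.8), whose low Pi replicate 3 was again the lowest of the 3 low Pi libraries. The count was 0 without control replicate 2 or 3 or low Pi replicate 1. Of 15 tested phenylpropanoid genes 2 rose (13.3%, against 4.81% of all tested genes), 4CL2 (0.45) and 4CL1 (0.44). The call of 4CL1 was lost without control replicate 3 (limma adjusted p = 0.057) or low Pi replicate 1 or 2 (0.052 and 0.057). Of 20 tested cell cycle and meristem genes 1 fell (5%, against 3.78% of all tested genes). It was CDKB2;1 (-0.29), a call lost in 5 of the 6 left-out fits. Of 7 reference genes 1 rose (14.3%, against 4.81% of all tested genes), the ubiquitin gene UBQ10. It went from 1332, 1388 and 1349 RPKM to 1844, 1774 and 1607 RPKM (log2 difference 0.36, SE 0.06, limma adjusted p = 0.005).

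Transcription factors of the WRKY and NAC families were more often higher than lower. Of 60 tested WRKY genes 11 rose and 1 fell (median 0.16). WRKY45, which activates the Pi transporter gene PHT1;1, stood at 13.1, 11.9 and 11.5 RPKM in control and at 35.7, 58.1 and 24.6 RPKM in low Pi (log2 difference 1.57, SE 0.31, limma adjusted p = 0.015), a call lost without control replicate 3 (0.062). The rises numbered 2 without control replicate 3 and 17 without low Pi replicate 3. Of 77 tested NAC genes, a family looked at after values were seen, 16 rose and 3 fell. NAP, a regulator of leaf senescence, stood at 4.25, 3.39 and 3.43 RPKM in control and at 11.7, 20.4 and 11.1 RPKM in low Pi (log2 difference 1.78, SE 0.26, limma adjusted p = 0.004), and NAC047 was at 9.78 to 12.1 and 23.7 to 54.9 RPKM. LOV1, a NAC gene that delays flowering, fell from 4.19, 3.55 and 3.74 RPKM to 1.29, 0.878 and 1.43 RPKM (log2 difference -1.36, SE 0.18, limma adjusted p = 0.0025). In each left-out fit 5 NAC genes rose and 2 fell, and the rises numbered 5 without control replicate 2 or 3 or low Pi replicate 1 or 2. Of 11 tested class III peroxidases named PER or PRX, PRX52 alone rose (9.09%, against 4.81% of all tested genes) and 0 fell. Peroxidase genes under other names were not in this count. Among 16 tested expansins 1 rose and 1 fell (6.25% each, against 4.81% and 3.78% of all tested genes).

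**Figure D4:**
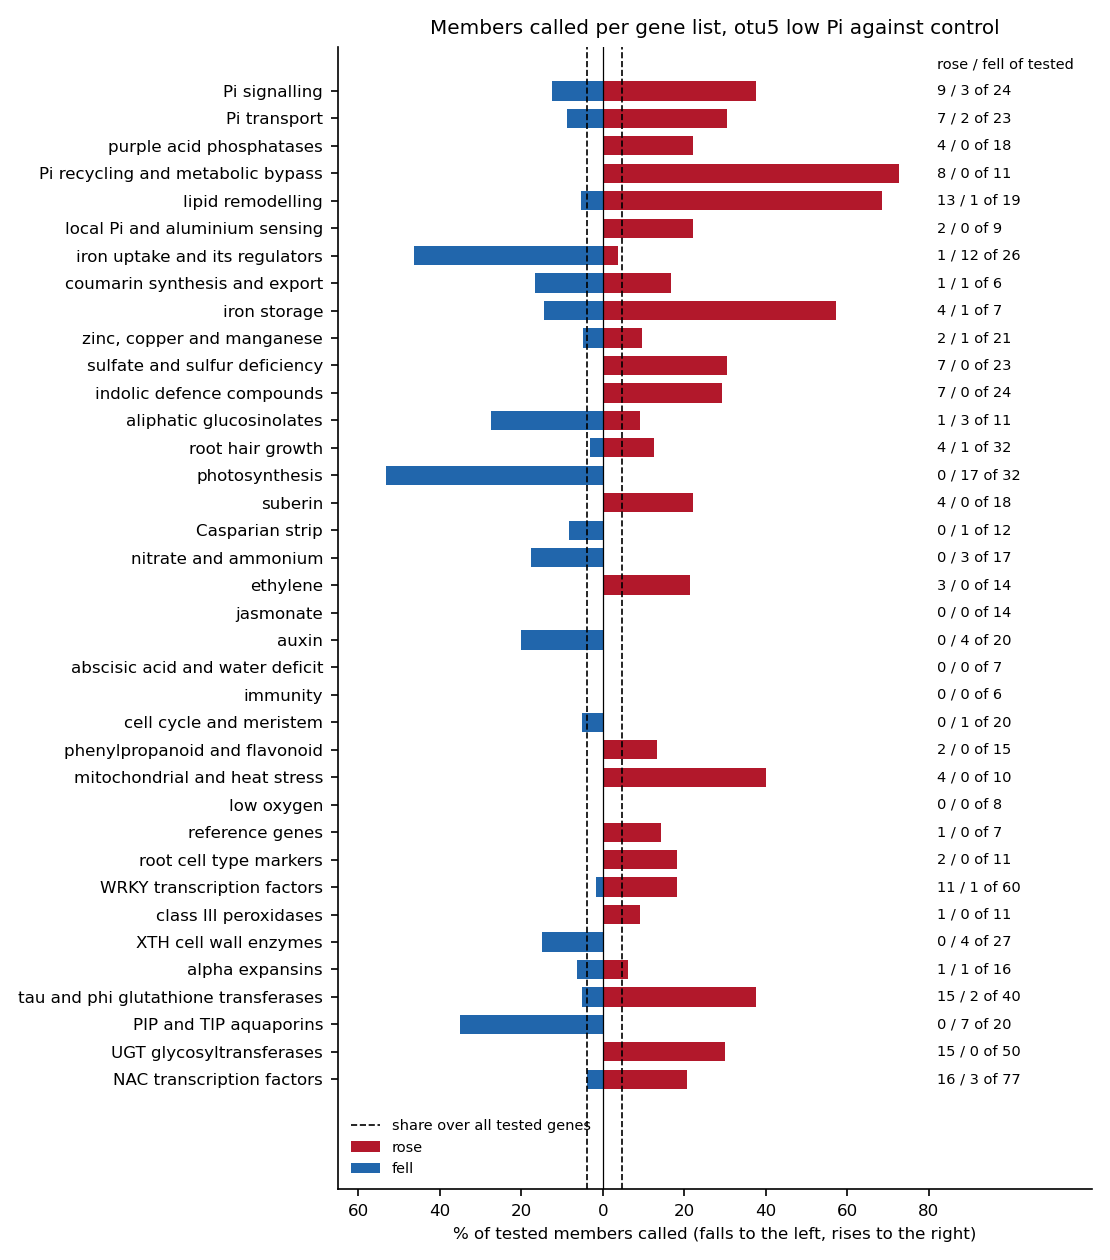
Share of the tested members that rose (red, right) or fell (blue, left) in otu5 low Pi, for each gene list except the shoot markers (2 tested), with the counts at the right edge and dashed lines at the shares over all tested genes, 4.81% and 3.78%. Of the lists drawn, the longest red bars are Pi recycling (8 of 11) and lipid remodelling (13 of 19), and the longest blue bars photosynthesis (17 of 32) and iron uptake (12 of 26).

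Longer and denser root hairs are a well known response to low Pi. Of 32 tested root hair growth genes 4 rose in otu5 (12.5%, against 4.81% of all tested genes), with a median log2 difference of 0.05. In otu5 1 fell (3.12%, against 3.78%), a call lost in every left-out fit. In WT, where 875 genes (4.29%) were called, 17 of the 32 rose (2.55% of all tested genes rose) and 0 fell (1.74%), with a median of 0.52. The WT count was 387, 490 or 242 without WT control replicate 1, 2 or 3, and 324 or 525 without WT low Pi replicate 2 or 3. PRP1, a wall protein gene of root hairs, stood at 9.66, 7.59 and 6.45 RPKM in otu5 control and at 14, 22.6 and 14.1 RPKM in otu5 low Pi (log2 difference 1.03, SE 0.19, limma adjusted p = 0.0099), and it was the rise called in every left-out fit. RSL4, the transcription factor that sets root hair length, rose from 4.65 to 5.36 RPKM in control to 6.86 to 10.8 RPKM in low Pi (log2 difference 0.67, SE 0.14), a call lost without control replicate 3 (adjusted p = 0.075). XTH14 stood at 103, 93.8 and 90.5 RPKM in otu5 control and at 76.3, 95.8 and 87.7 RPKM in otu5 low Pi, with overlapping groups. XTH14 encodes a xyloglucan enzyme of growing root hairs. In WT it stood at 98.9, 100 and 80.8 RPKM in control and at 237, 200 and 156 RPKM in low Pi, without overlap. AGP3, an arabinogalactan protein gene, stood at 94.9, 87.9 and 87.5 RPKM in otu5 control and at 66.8, 79.8 and 79.4 RPKM in otu5 low Pi, while in WT it went from 81.2 to 89.5 RPKM up to 121 to 173 RPKM. The log2 difference of the otu5 response from the WT response was -1.21 (SE 0.2) for XTH14 and -1.01 (SE 0.16) for AGP3. Neither passed over all genes (limma adjusted p = 0.22 for each). Of the 32 genes 19 had an unadjusted p under 0.05 in this test, against 5.47% of all tested genes, and 0 were called. With the replicate number as a block in WT, added after seeing the data, limma called 3, XTH14 (adjusted p = 0.036), AGP3 (0.044) and LRX1 (0.044).

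Over all genes the test of the difference between the responses called 1 of 20411 (0.0049%), with 1117 at an unadjusted p under 0.05. That gene was PAL4, a phenylalanine ammonia-lyase, the enzyme that opens the phenylpropanoid pathway. It stood at 16.7, 13.9 and 14.8 RPKM in otu5 control and at 21.1, 19.7 and 21.8 RPKM in otu5 low Pi (log2 difference 0.45, SE 0.06, limma adjusted p = 0.0033). In WT it stood at 22.8, 22.2 and 22.8 RPKM in control and at 16.7, 17 and 16.3 RPKM in low Pi, so the groups moved in opposite directions without overlap. The difference of the responses was 0.88 (SE 0.09, limma adjusted p = 0.025). The call was lost without otu5 control replicate 2 or 3 (adjusted p = 0.052 and 0.08), without otu5 low Pi replicate 1 (0.15), without WT control replicate 1 or 3 (0.15 and 0.16) and without WT low Pi replicate 1 or 2 (0.063 and 0.11). The number of genes called ranged from 0 to 17, with 17 without WT low Pi replicate 3, 5 without otu5 low Pi replicate 3 and 3 without WT control replicate 2. With the replicate number as a block in every group 0 genes were called (PAL4 adjusted p = 0.078). With the block in WT only, added after seeing the data, 15 genes were called, PAL4 among them (limma adjusted p = 0.036). Others were scpl31 (-1.07, limma adjusted p = 0.036) and CDEF1, a cutinase gene (-1.19, limma adjusted p = 0.036). CDEF1 stood at 107, 98.2 and 98.2 RPKM in otu5 control and at 44.3, 49.1 and 40.7 RPKM in otu5 low Pi, whereas in WT it was at 46.4 to 73.1 RPKM in control and 55.3 to 62.3 RPKM in low Pi.

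Most genes called in otu5 pointed the same way in WT. Of the 1754 otu5 calls 95.3% had the same sign of log2 difference in WT, against 70.8% of all tested genes, and the otu5 and WT comparisons share no library. Genes called in the same direction in both numbered 519, which is 29.6% of the otu5 calls and 59.3% of the WT calls. Opposite calls numbered 3, PAL4 and the loci AT1G21440 and AT5G26320. IPS1 had log2 differences of 5.45 in otu5 and 6.56 in WT, SPX1 3.2 and 3.6, PHT1;4 2.11 and 2.24, IRT1 -4.38 and -5.33, and BHLH39 -2.32 and -2.08. None of these 5 passed in the test of the difference (limma adjusted p from 0.93 to 0.99). For CYP82C2 and CYP71A12 the values were 6.13 and 5.42 in otu5 and 3.87 and 3.61 in WT, and the difference between the responses was 2.26 (SE 1.25) and 1.82 (SE 1.27), which did not pass either (limma adjusted p = 0.93 and 0.96).

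**Figure D5:**
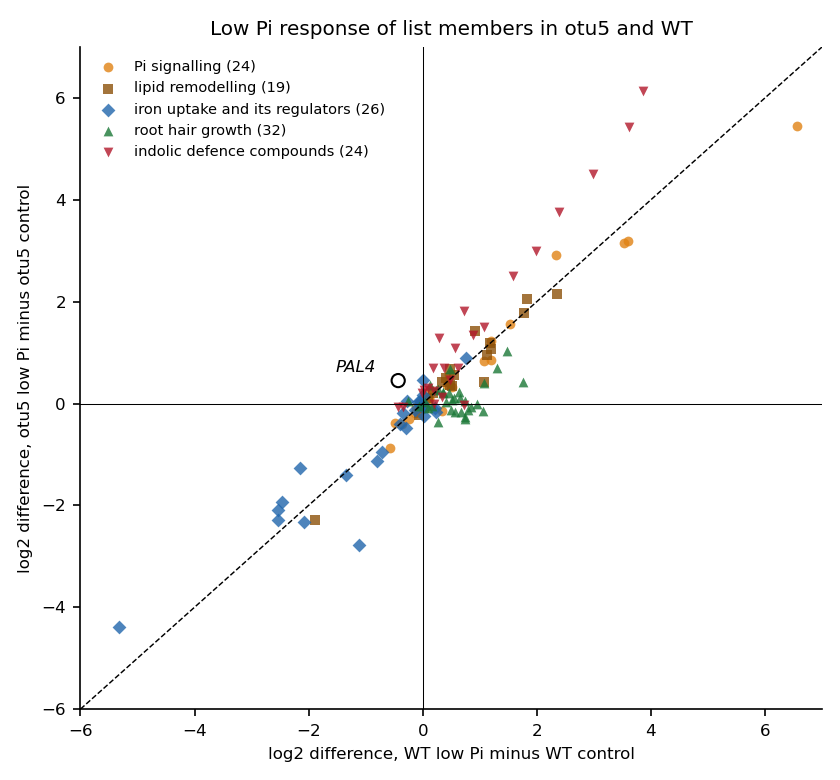
Log2 difference between low Pi and control in WT (x axis) and in otu5 (y axis) for the tested members of 5 gene lists, with the number of members in brackets; the dashed line marks equal responses and the open circle PAL4. Pi signalling, lipid and iron uptake genes lie along the line, most indolic defence genes above it, and many root hair growth genes lie near 0 on the otu5 axis with WT values up to 1.76.

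Some neighbouring loci moved together and others did not. AT1G26380, AT1G26390, AT1G26410 and AT1G26420, which lie in 1 stretch, rose by 3.77, 4.48, 3.4 and 2.34 on the log2 scale, and AT1G26390 held its call in every left-out fit. AT1G26380 and AT1G26420 lost theirs in each left-out fit except that without low Pi replicate 3, and AT1G26410 without control replicate 3 or low Pi replicate 1 or 2 (adjusted p from 0.053 to 0.066). Near AIR1 the loci AT4G12500, AT4G12490 and AT4G12545 fell by 2.94, 1.48 and 1.33, of which AT4G12500 held its call in every left-out fit and the other 2 lost theirs in 5 of the 6 (adjusted p up to 0.13). CYP82C2 and CYP82C4, of the same gene family and the same stretch, went in opposite directions, and AT2G30766, which fell, lies between CYP71A12 and CYP71A13, which rose. The sources used here do not give whether counting used strand or how overlapping and near-identical genes were treated.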

How the data were processed

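RNA was sequenced from polyadenylated RNA as 100-base reads in 12 root libraries, 3 in each of 4 groups, per the labels' protocols. The authors deposited 1 table of RPKM per gene and library. Per the submitters' processing notes, TopHat2 2.0.4, Cuffdiff and the build TAIR10 were used; their roles and order are not given. RPKM is not a count, so the absolute depth behind a value is unknown and no count test was run. Names came from a RefSeq table of assembly TAIR10.1, which held 97.8% of the identifiers. Its chromosomes and start positions gave the order of neighbouring genes.

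Values were taken as log2(RPKM + 0.5), so fold changes of low genes are understated. Genes that reached 1 RPKM in 3 or more libraries were fitted with limma 3.58.1 in R 4.3.3, with 1 mean per group, 8 residual degrees of freedom, and trend and robust estimation. Benjamini-Hochberg adjustment ran over all 20411 genes in each of 3 contrasts (otu5, WT and their difference), with a threshold of 0.05. The procedure was tested on simulated data with independent noise for each gene and library. Those data lack spread that many genes of a library share, so the test does not cover it. Tables were made with Python 3.11.15, pandas 2.3.3 and numpy 2.4.6.

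Gene lists are described by counts and medians with no set test. Each otu5 count stands against the shares over all tested genes, 4.81% that rose and 3.78% that fell. Counts of members called in every left-out fit stand against 2.17%, both directions together. The members, lists and tests were chosen with earlier results of these data known. Genes named are OTU5, the 10 largest non-overlapping rises and falls with a symbol, up to 4 called genes per list and those called in the difference. Other genes named were chosen after their values were seen. Near copies and overlapping genes may share reads.

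Replicate numbers are shared between media. The main fit had no block. Deviations of same-numbered WT libraries correlated at 0.20, 0.26 and 0.11, and those of other-numbered WT libraries at -0.18 to -0.02. In otu5 other-numbered libraries reached 0.18, so values near these also occur without a shared number. An added setting treated WT numbers as pairs, a pairing seen in the data and not stated in the labels.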

Additional observations from a re-analysis of the deposited data

Results flagged for a closer look

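PAL4, a phenylalanine ammonia-lyase gene, moved in opposite directions under low Pi in the 2 genotypes. The low Pi response in otu5 minus that in WT was 0.88 on the log2 scale (SE 0.09, limma adjusted p = 0.025, or 0.078 with the replicate number as a block in every group). It was higher in all 3 low Pi libraries of otu5 than in any otu5 control library and lower in all 3 low Pi libraries of WT than in any WT control library. Of the related genes, PAL1 (log2 difference 0.14 in otu5) and PAL2 (0.35, adjusted p = 0.054) did not pass in otu5.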

How the results depend on the processing

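The otu5 count of 1754 genes became 7631 with estimated library weights and 855 with only the 6 libraries compared, and it ranged from 503 to 2494 without 1 library. The WT count of 875 became 2005 with library weights and ranged from 242 to 602 without 1 library. The count for the difference between responses, 1, became 2 without a filter on low values, 2 without trend and robust estimation and 147 with library weights, and it ranged from 0 to 17 without 1 library. No direction of a named gene reversed in 119 gene results. Calls were lost in 48 of 118 with only the 6 libraries, in 31, 41 and 61 of 119 without otu5 control replicate 1, 2 and 3, in 51, 46 and 11 when otu5 low Pi replicate 1, 2 or 3 was removed, and in 3 to 13 under the pseudocounts, no filter, no trend and the block. Quantile normalization and median-ratio scaling ended none of 119, and a filter of 5 RPKM none of the 102 results whose genes it kept. The scaling factors of the median-ratio setting lay between 0.9991 and 1.001, so that setting could hardly change a call. Causes were not tested.

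With the replicate number as a block in every group, 1473 otu5 genes and 735 WT genes were called and 0 for the difference. In otu5 the same-numbered libraries correlated at -0.11, -0.09 and -0.00, and the labels do not say whether they share more than a number. With the block in WT only, added after seeing the data, 946 WT genes and 15 for the difference were called.

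The search for the PHR1 binding letters in promoters and its alternative were not run, since no promoter sequences were used here.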

Other observations

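Some of the clearest changes were in loci without a symbol in the names table, which made up 811 of the 1754 called genes; those given here were chosen after their values were seen. AT5G20790 stood at 1.42, 1.25 and 1.22 RPKM in otu5 control and at 46.5, 68 and 57.2 RPKM in otu5 low Pi (log2 difference 4.99, limma adjusted p = 0.00013), with the low Pi libraries close together. AT2G04460 was listed at 0, 0.156 and 0 RPKM in control and at 9.17, 28.9 and 18.9 RPKM in low Pi.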
